A study of Homo sapiens with 3 samples.

Results

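The genes of glycerolipid and phospholipid synthesis described here are LPIN1, LPIN2, LPIN3, DGAT1, DGAT2, PCYT1A, AGPAT1, PLPP2 (formerly PPAP2C), CHKA and SPTLC3. They were chosen by name with earlier results of these data known, so their counts beside all named genes describe this set only. Every array probe that RefSeq transcripts assign to them was used. This gave 16 probes of 58201 on the array and 10 genes of 25006 named ones. LPIN1, DGAT1 and SPTLC3 have 3 probes each and the other 7 genes have 1 probe each. All 16 probes exceeded the background clearly in either channel of each array, and none lay on a spot marked as not uniform.

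The cells are clones of U-87MG (U87), a human glioma line. U87WT 5 (U87WT) carries the insulin-like growth factor 1 receptor fused to GFP (GFP-IGF1R). In the study this receptor moved to the nucleus after IGF1, and the inhibitor OSI906 prevented the move. U87Mut 5 (U87Mut) carries GFP-IGF1R1025x-1100x-1120x, in which 3 lysines are replaced by arginines and for which no such move was seen. Both are stable clones selected with geneticin, and each is 1 clone, so a difference between these clones cannot be told apart from the effect of the mutation. Each of 3 two-color arrays held U87WT RNA labeled with Cy5 and U87Mut RNA labeled with Cy3. The arrays were 1 for FBS-free medium, 1 for IGF1 (50 nM, 24 h) and 1 for IGF1 with OSI906, which inhibits IGF1R and the insulin receptor. The sample's name gives a dose of 0.5 μM for OSI906, and its medium label gives 500 μM. The study's text also gives 0.5 μM for these arrays, with 1 h of preincubation. With 1 array for each medium and the same dye for each clone throughout, a value of a single array has no replicate error, and a gene's dye bias cannot be told apart from a clone difference.

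Both channels were well above background for 50.1% to 52.8% of probes, and no spot was saturated. On the IGF1 array a patch of spots had a Cy5 background of up to 66985 units, and the ratios below come from a background correction fitted without spots marked as not uniform. The probe for IGF1R gave log2 ratios of U87WT over U87Mut of 0.07, 0.23 and 0.09 on the FBS-free, IGF1 and IGF1 with OSI906 arrays. Where it lies in the transcript is not given, so it does not check the transfected sequences. Of the line's mesenchymal glioma markers, 5 of 5 were well above background on all arrays (VIM at log2 levels of 14.9 to 16.1), as were AQP4 (6.12 to 6.34) of the astroglial and CDH5 (6.03 to 6.20) of the endothelial markers, while the astroglial genes GFAP and S100B and the endothelial genes PECAM1 and CLDN5 were above it on none. All 3 neuronal markers (RBFOX3 8.50 to 9.81) and 2 of 3 leukocyte markers (CSF1R 8.78 to 9.91) were also above it on all arrays, and their part in the results was not tested.

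Glycerol 3-phosphate is acylated first to lysophosphatidic acid and then, by the AGPAT enzymes, to phosphatidic acid. Lipins remove its phosphate to give diacylglycerol, the branch point between storage and membranes: the DGAT enzymes acylate diacylglycerol to triacylglycerol, which fills lipid droplets, and the Kennedy pathway, with choline kinase (CHKA) and the rate-limiting enzyme that makes CDP-choline (PCYT1A), joins it to choline as phosphatidylcholine. SPTLC3 is a subunit of serine palmitoyltransferase, which starts sphingolipid synthesis. Insulin and related growth factors are known to promote lipid synthesis, partly through the sterol regulatory element-binding proteins, and to restrain the forkhead factors of the FOXO family.

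RefSeq promoter windows, from 250 bases before to 50 bases after an annotated start in GRCh38.p14, were at hand for 5 of the 10 genes (AGPAT1, LPIN1, LPIN2, PCYT1A and PLPP2), with 12 windows in all. Both strands were searched for short motifs, and their matches do not overlap in the windows shown. The sterol regulatory element, TCACNCCAC, stood in 0 of 12 windows and in 1.13% of the 35116 windows of the whole table. The forkhead site, GTAAACA, stood in 0 of 12 against 3.42%. The E-box, CACGTG, stood in 1 of 12 against 7.26%, the window being one of LPIN2. The CCAAT box, spelled as its name, stood in 3 of 12 against 34.6%, and the GC box, GGGCGG, stood in 7 of 12 against 45%. Windows of one gene are not separate items: 3 of the 3 windows with a CCAAT box and 4 of the 7 with a GC box belong to AGPAT1, which has windows that overlap. The windows of LPIN1 and LPIN2, the lipins past the limit on the IGF1 array, and of PCYT1A, whose ratio varied least among the arrays, are printed with motif matches in capitals. For LPIN1 and LPIN2, which have several annotated starts, the window with the highest GC content is given (71.3% and 83.3%).
LPIN1 (chr2:11746382-11746681, plus strand): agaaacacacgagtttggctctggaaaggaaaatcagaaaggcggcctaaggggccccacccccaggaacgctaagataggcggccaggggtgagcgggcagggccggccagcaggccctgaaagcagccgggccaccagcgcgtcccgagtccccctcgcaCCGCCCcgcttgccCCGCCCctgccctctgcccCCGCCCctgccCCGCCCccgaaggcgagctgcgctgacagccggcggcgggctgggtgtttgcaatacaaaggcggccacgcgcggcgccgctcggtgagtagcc
LPIN2 (chr18:3013095-3013394, minus strand): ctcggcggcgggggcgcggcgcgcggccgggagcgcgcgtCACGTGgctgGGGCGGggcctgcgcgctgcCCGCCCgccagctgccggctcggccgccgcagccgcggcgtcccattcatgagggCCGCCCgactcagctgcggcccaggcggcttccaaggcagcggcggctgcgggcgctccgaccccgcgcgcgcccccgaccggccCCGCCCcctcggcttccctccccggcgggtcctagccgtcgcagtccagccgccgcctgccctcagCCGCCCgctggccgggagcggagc
PCYT1A (chr3:196287677-196287976, minus strand): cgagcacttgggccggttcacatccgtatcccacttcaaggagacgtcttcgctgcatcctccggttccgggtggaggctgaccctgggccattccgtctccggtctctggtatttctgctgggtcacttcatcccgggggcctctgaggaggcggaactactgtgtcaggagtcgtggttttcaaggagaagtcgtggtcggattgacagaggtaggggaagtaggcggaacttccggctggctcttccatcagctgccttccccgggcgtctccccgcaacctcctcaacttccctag
The LPIN1 window has 4 GC boxes, all on the opposite strand. The LPIN2 window has 1 E-box and 5 GC boxes on both strands, and the PCYT1A window, with 60.3% GC, has no match. The windows left out, with less GC, have fewer GC boxes, 0 and 1 for LPIN1 and 0 for LPIN2. A match is only a run of letters, and neither binding nor the start that these cells use was measured.

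A gene's value is that of its brightest probe unless another is named, and a log2 ratio above 0 means a higher level in U87WT. A ratio past 0.5 in size, or 1.41-fold, was counted as a difference on 1 array. The limit is 3.48 times 0.144, the SD of a single ratio estimated from the FBS-free and IGF1 with OSI906 arrays, so it includes any response to the media. On the FBS-free array, 1 of the 10 genes was above the limit (DGAT1) and 1 was below it (PLPP2), against 6.37% and 6.12% of 15343 named genes well above background. On the IGF1 array, 3 were above (LPIN1, LPIN2 and SPTLC3) and 1 was below (PLPP2), against 7.33% and 4.72%. On the IGF1 with OSI906 array, 0 were above, against 5.75%, and PLPP2 alone was below, against 5.66%. The median ratio of the 10 genes was 0.15, 0.22 and 0.19 on the 3 arrays, beside -0.01, 0.02 and -0.01 for all those genes, and 7, 6 and 7 of the 10 were above 0, beside 47.8%, 54.0% and 47.7% of all those genes. PLPP2 and CHKA lay below 0 on each array, although the small CHKA ratio on the IGF1 array was above 0 with median normalization. With all spots in the background fit, 1 member in place of 4 was past the limit on the IGF1 array.

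**Figure D1:**
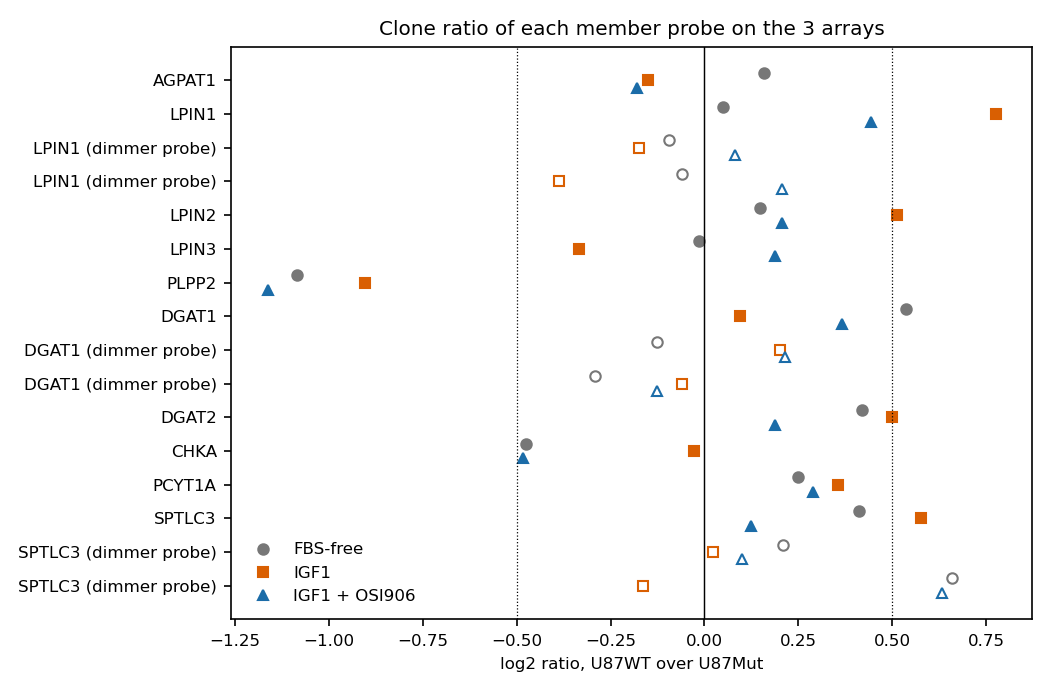
Log2 ratio of U87WT over U87Mut (x axis) for each of the 16 probes (rows), on the FBS-free (grey circles), IGF1 (orange squares) and IGF1 with OSI906 (blue triangles) arrays; filled symbols are the brightest probe of a gene, open symbols its dimmer probes, and dotted lines the limit of 0.5. PLPP2 lies between -1.16 and -0.90 on all arrays, LPIN1 spreads from 0.05 to 0.78 by its brightest probe, and the dimmer probes of LPIN1, DGAT1 and SPTLC3 do not follow the brightest ones.

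The clone difference over the 3 arrays was tested with limma, with Benjamini-Hochberg adjustment over 58174 probes. It passed for 3 of the 10 genes, DGAT2 and PCYT1A higher in U87WT and PLPP2 lower, where 21.8% of the named genes passed (11% higher and 10.7% lower). The arrays of this test differ in medium, so that a response to the medium adds to its error. At an unadjusted p under 0.05 the count was 8 of 10, against 45.4%. None of the 10 passed with all spots in the background fit, with the signals processed by the scanner software, with median normalization within arrays or with the deposited log2 ratios. The share of named genes passing in these settings was not counted, so this loss does not set the 10 genes apart.

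AGPAT1, the acyltransferase that makes phosphatidic acid, had a brightness of 1748 units in U87WT and 1613 in U87Mut in FBS-free medium, 1595 and 1173 after IGF1, and 1361 and 1428 after IGF1 with OSI906. Brightness is given as scanned, before normalization, which also removes a difference between the dyes on each array, so the ratios do not follow from it directly. The log2 ratios of AGPAT1 were 0.16, -0.15 and -0.18, all within the limit. Their mean was -0.06 ± 0.078 (SE, n = 3 arrays; limma adjusted p = 0.754), with a 95% interval from -0.26 to 0.15.

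LPIN1 had the highest clone ratio of the 10 genes on the IGF1 array, and LPIN2 was just past the limit there. LPIN1 encodes the phosphatidate phosphatase that also acts in the nucleus as a coregulator of transcription. Its brightest probe had 3513 units in U87WT and 3390 in U87Mut in FBS-free medium, 3795.5 and 1405.5 after IGF1, and 2872 and 1882 after IGF1 with OSI906. The clones had nearly the same level without serum, and U87WT stood above U87Mut on both arrays with IGF1. The LPIN1 log2 ratios were 0.05, 0.78 and 0.44, or 1.04-, 1.71- and 1.36-fold, and on the IGF1 array the ratio lay at the 97.5th percentile of named genes. The normalized log2 level of U87WT was 11.62, 11.66 and 11.52 and that of U87Mut 11.57, 10.88 and 11.08. With this normalization the U87Mut channel was the one that differed between the FBS-free and IGF1 arrays, by -0.69 against 0.04 in U87WT. Over 8 alternative settings the difference ranged from -1.05 to -0.24 in U87Mut and from -0.21 to 0.40 in U87WT. The mean ratio over the arrays was 0.42 ± 0.14 (SE, n = 3 arrays; limma adjusted p = 0.185).

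This pattern of LPIN1 was seen with 1 of its 3 probes. Another probe, with 159, 123.5 and 155 units in U87WT and 177, 129 and 124 in U87Mut, gave log2 ratios of -0.06, -0.39 and 0.21. The dimmest, at 34 to 46 units over a background of 20 to 24, gave -0.10, -0.18 and 0.08. With the mean of the 3 probes in place of the brightest, the LPIN1 ratio on the IGF1 array was 0.07, within the limit.

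LPIN2, a lipin of liver and brain, had 812, 1118 and 756 units in U87WT and 767.5, 525.5 and 616 in U87Mut on the FBS-free, IGF1 and IGF1 with OSI906 arrays. Its log2 ratios were 0.15, 0.51 and 0.21, just past the limit after IGF1 only. Here the U87WT channel differed between the FBS-free and IGF1 arrays, by 0.37, and the U87Mut channel by 0.00. Over 8 alternative settings these differences ranged from 0.07 to 0.71 and from -0.34 to 0.17. The mean ratio of LPIN2 was 0.29 ± 0.081 (SE, n = 3 arrays; limma adjusted p = 0.127). In the deposited log2 ratios the value on the IGF1 array was -0.03. LPIN3, the lipin of gut and liver, was dim, with 83, 78 and 92.5 units in U87WT and 87, 82 and 73 in U87Mut. Its log2 ratios were -0.02, -0.33 and 0.19, lowest on the array where those of the other lipins were highest, with a mean of -0.05 ± 0.10 (SE, n = 3 arrays; limma adjusted p = 0.834). The difference between the IGF1 with OSI906 and IGF1 arrays in the ratio of LPIN3 was 0.52, past the limit, as for 2.47% of named genes, and 0 of the 10 genes had a difference past the limit downwards, as 3.77% of named genes did. For LPIN1 and LPIN2 it was -0.33 and -0.31, while the dimmer probes of LPIN1 gave 0.26 and 0.59.

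PLPP2, a membrane phosphatase that dephosphorylates lysophosphatidic acid, phosphatidic acid and related lipids, was the member with the largest clone difference. Its probe had 222, 160 and 188.5 units in U87Mut and 78, 97 and 71 in U87WT on the FBS-free, IGF1 and IGF1 with OSI906 arrays. U87Mut was the higher clone in all media, and its lowest brightness as scanned lay above the highest of U87WT. The log2 ratios were -1.09, -0.90 and -1.16, so that U87Mut stood 2.12-, 1.87- and 2.24-fold above U87WT. As U87WT was dim here, the sizes depend on the background correction, and with the signals processed by the scanner software the ratios were -1.72, -1.38 and -1.79, with a mean of -1.63 (limma adjusted p = 0.131). PLPP2 was the only member past the limit in 1 direction on all 3 arrays, as were 5.49% of named genes. The mean was -1.05 ± 0.060 (SE, n = 3 arrays; limma adjusted p = 0.00434), lower in U87WT on 3 of 3 arrays; without the IGF1 with OSI906 array the adjusted p was 0.0521. With all spots in the background fit the ratio on the IGF1 array was -0.26. Its IGF1 and FBS-free arrays differed by 0.11 in U87WT and -0.07 in U87Mut.

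Of the acyltransferases of triacylglycerol, DGAT2 passed the test and DGAT1 did not. DGAT1 had 612.5, 395 and 574 units in U87WT and 434, 262.5 and 418 in U87Mut. Its log2 ratios were 0.54, 0.09 and 0.37, past the limit in FBS-free medium only, the reverse of the order seen for LPIN1. The level in U87WT on the IGF1 array was 0.65 below that on the FBS-free array on the log2 scale, and with OSI906 it was 0.72 above that on the IGF1 array. In U87Mut these differences were -0.20 and 0.45. The lower DGAT1 level of U87WT on the IGF1 array was seen with 1 of 3 probes, the dimmer ones having differences of 0.33 and 0.18, and with the mean of the probes the difference was -0.04. The higher level with OSI906 in U87WT was past the limit with that 1 probe only, the dimmer ones having differences of 0.05 and 0.10. The mean ratio was 0.33 ± 0.091 (SE, n = 3 arrays; limma adjusted p = 0.119), and without the IGF1 array it was 0.45 (limma adjusted p = 0.0164). The dimmer probes of DGAT1 gave log2 ratios of -0.13, 0.20 and 0.22 and of -0.29, -0.06 and -0.13, with no value past the limit.

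DGAT2, which makes triacylglycerol at the surface of lipid droplets, was dim, with 88.5, 75.5 and 78.5 units in U87WT and 60, 36 and 63.5 in U87Mut, over backgrounds of 19.5 to 23. U87WT was the higher clone on every array. Its log2 ratios were 0.42, 0.50 (0.499, within the limit) and 0.19, and their mean was 0.37 ± 0.069 (SE, n = 3 arrays; limma adjusted p = 0.0481), higher in U87WT on 3 of 3 arrays. The call was lost without any one of the arrays, with limma adjusted p = 0.210 without FBS-free medium, 0.0675 without IGF1 and 0.0694 without IGF1 with OSI906. At this brightness the offset of the background correction pulls ratios towards 0.

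Of the Kennedy pathway genes, PCYT1A was higher in U87WT by limma, and CHKA had ratios below 0 that did not pass. CHKA, the first enzyme of phosphatidylcholine synthesis, had 1880.5, 2365 and 1441 units in U87WT and 2684, 1560 and 1854 in U87Mut. Its log2 ratios were -0.48, -0.03 and -0.48: U87Mut stood above U87WT without serum and with OSI906, just inside the limit, and the clones were close after IGF1. The mean was -0.33 ± 0.10 (SE, n = 3 arrays; limma adjusted p = 0.165), and without the IGF1 array it was -0.48 (limma adjusted p = 0.00816). From the FBS-free to the IGF1 array CHKA differed by 0.23 in U87WT and -0.22 in U87Mut, and from the IGF1 to the IGF1 with OSI906 array by -0.44 and 0.02.

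PCYT1A had 824, 1000 and 651 units in U87WT and 724, 529 and 502 in U87Mut. Its log2 ratios were 0.25, 0.36 and 0.29, or 1.19-, 1.28- and 1.22-fold, the narrowest range among the 10 genes. The mean was 0.30 ± 0.038 (SE, n = 3 arrays; limma adjusted p = 0.0187), higher in U87WT on 3 of 3 arrays, although no single array was past the limit. On the IGF1 array the ratio of PCYT1A was -0.09 with all spots in the background fit and -0.16 in the deposited log2 ratios, and on the FBS-free array it was -0.03 with median normalization. The limma adjusted p was 0.0831 without the FBS-free array, 0.0335 without the IGF1 array and 0.121 without the IGF1 with OSI906 array. Between media the clones had differences of the same sign, 0.19 in U87WT and 0.08 in U87Mut from FBS-free medium to IGF1, and -0.36 and -0.29 from IGF1 to IGF1 with OSI906.

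**Figure D2:**
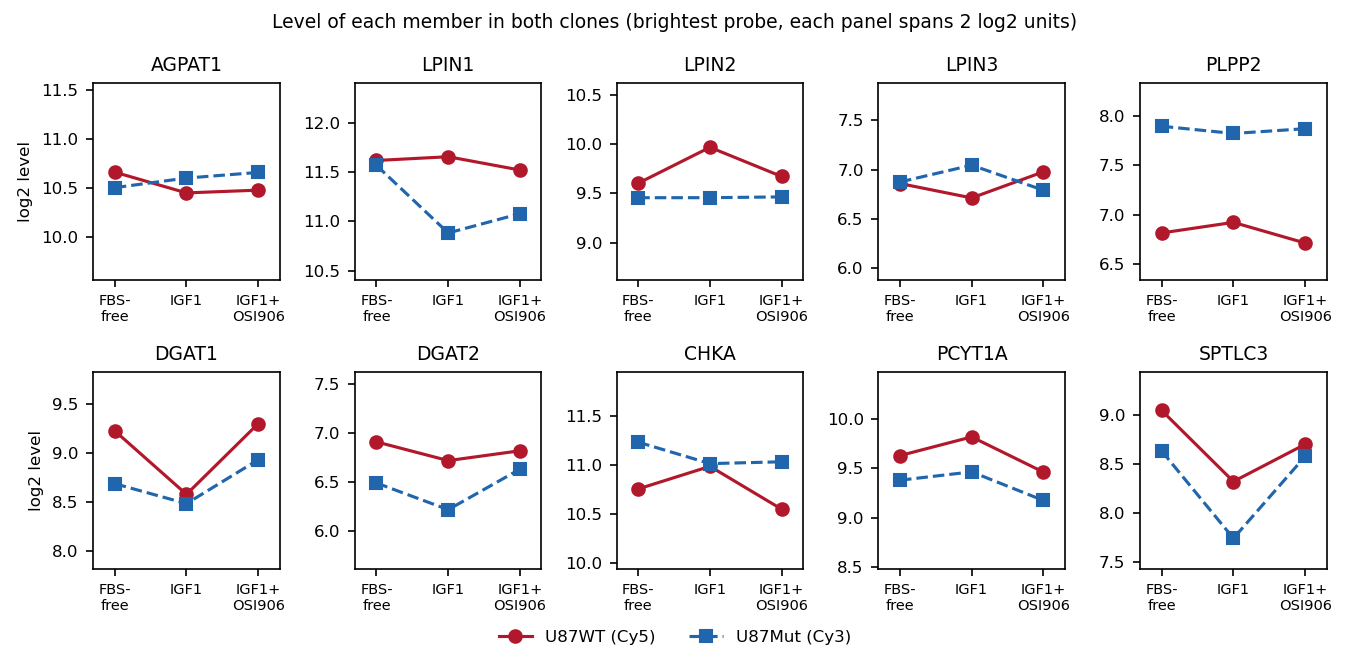
Normalized log2 level (y axis) of the brightest probe of each of the 10 genes in U87WT (red circles, Cy5) and U87Mut (blue squares, Cy3) on the 3 arrays (x axis), 1 value for each clone and array; each panel spans 2 log2 units, and levels cannot be set against each other between panels. For LPIN1 the clones lie together in FBS-free medium and apart on the IGF1 array, where U87Mut is at 10.88, PLPP2 has a wide gap in all media, and SPTLC3 and DGAT1 are lower on the IGF1 array in both clones.

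SPTLC3 differed most among the 10 genes between the FBS-free and IGF1 arrays, in both clones. Its brightest probe had 531.5, 319.5 and 372 units in U87WT and 414, 145.5 and 324 in U87Mut. On the IGF1 array the normalized level was lower than on the FBS-free array by 0.72 in U87WT and 0.89 in U87Mut on the log2 scale, and with OSI906 it was higher than on the IGF1 array by 0.38 and 0.83. The clone ratios of 0.41, 0.58 and 0.12 were above 0 on every array, past the limit after IGF1 only, with a mean of 0.37 ± 0.093 (SE, n = 3 arrays; limma adjusted p = 0.0986).

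The 3 probes of SPTLC3 did not behave alike. One of the dimmer probes (260.5, 159.5 and 255 units in U87WT, 160, 136 and 146.5 in U87Mut) also had a lower level on the IGF1 array in U87WT, by -0.66 on the log2 scale, while in U87Mut the difference was 0.17. Its clone ratios were 0.66, -0.16 and 0.63. The other gave clone ratios of 0.21, 0.02 and 0.10. The lower SPTLC3 level on the IGF1 array was thus past the limit by 2 of 3 probes in U87WT and by 1 of 3 in U87Mut. With OSI906 the level was above that on the IGF1 array past the limit by 1 of 3 probes in each clone. That probe was the brightest in U87Mut and a dimmer one in U87WT.

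The responses of the clones were read as differences between arrays in 1 channel, which rest on the normalization between arrays and have no replicate. From FBS-free medium to IGF1, 0 of the 10 genes were above the limit and 2 were below it in U87WT (DGAT1, by 1 of its 3 probes, and SPTLC3, by 2 of 3), against 2.11% and 2.72% of named genes. In U87Mut, 0 were above and 2 were below (LPIN1 and SPTLC3, each by 1 of its 3 probes), against 0.854% and 1.68%. Adding OSI906 to IGF1 put DGAT1 above the limit in U87WT (3.73%) and SPTLC3 above it in U87Mut (2.07%), each by 1 of its 3 probes. The dimmer probes differed by 0.05 and 0.10 for DGAT1 in U87WT and by 0.09 and -0.07 for SPTLC3 in U87Mut. It put 0 members below the limit in either clone (3.68% and 0.984%). By their brightest probes, the other genes that were below the limit with IGF1 were also higher with the inhibitor. SPTLC3 was higher by 0.38 in U87WT and LPIN1 by 0.20 in U87Mut, both within the limit. The dimmer LPIN1 probes differed by -0.21 and -0.20 in U87Mut. The differences from FBS-free medium to IGF1 and from IGF1 to IGF1 with OSI906 share the IGF1 array. An error of that array would move them in opposite directions.

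**Figure D3:**
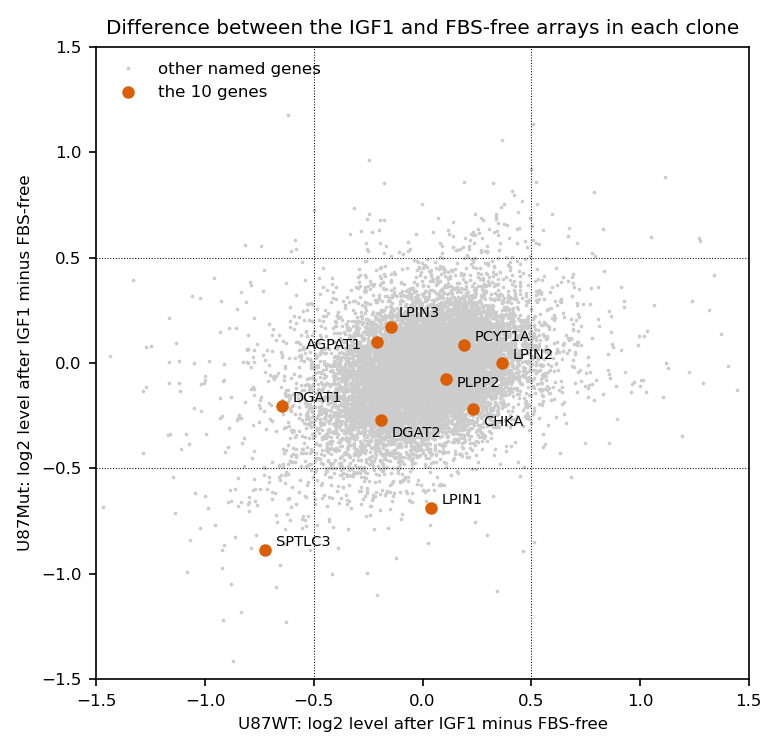
Log2 level on the IGF1 array minus that on the FBS-free array in U87WT (x axis) and in U87Mut (y axis), for the 10 genes (orange) and the other named genes well above background (grey; 21 genes lie outside the axes); dotted lines mark 0.5 in either direction. By their brightest probes, SPTLC3 lies past the limit in both clones (-0.72 and -0.89), LPIN1 in U87Mut (-0.69 against 0.04 in U87WT) and DGAT1 in U87WT (-0.65 against -0.20 in U87Mut).

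By the brightest probes, the clone ratio itself moved past the limit between the FBS-free and IGF1 arrays for 1 of the 10 genes, LPIN1. It moved by 0.73, at the 99.2th percentile, while the ratios of the dimmer LPIN1 probes moved by -0.08 and -0.33. Of all named genes 3.36% moved up and 2.27% moved down by more than the limit, and 0 of the 10 moved down by as much. A dimmer probe of SPTLC3 did, by -0.82. For the other members this difference ranged from -0.44 (DGAT1) to 0.45 (CHKA). From FBS-free medium to IGF1 with OSI906, 0 of the 10 ratios moved past the limit in either direction (1.65% and 1.17% of named genes), and that of LPIN1 moved by 0.39.

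The wider pathway was read from 81 other genes of lipid synthesis and storage, of which 80 had a probe and 68 were well above background on all arrays. On the FBS-free array 4 were above the limit and 3 below, on the IGF1 array 7 and 1, and on the IGF1 with OSI906 array 5 and 2. Among all named genes the shares above and below were 6.37% and 6.12%, 7.33% and 4.72%, and 5.75% and 5.66%. Their median ratios were -0.07, 0.04 and -0.04. By limma, 7 were higher in U87WT and 6 were lower, or 13 of 68, where 21.8% of named genes passed. By group, those higher and lower by limma were 1 and 3 of 13 acyltransferase genes, 3 and 0 of 10 genes of phosphatidate phosphatases and diacylglycerol, 2 and 0 of 9 Kennedy pathway genes, 1 and 1 of 10 genes of the CDP-diacylglycerol branch, 0 and 0 of 15 sphingolipid genes, and 0 and 2 of 11 genes of lipid droplets and lipolysis.

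Of these 68 genes, 3 were past the limit in the same direction on all 3 arrays, all higher in U87WT, where 5.49% of all named genes were past it in 1 direction. LPCAT3, which puts polyunsaturated acyl chains back into lysophospholipids, had log2 ratios of 0.89, 1.09 and 0.95 (limma adjusted p = 0.00388). PLPP3, a phosphatase of the same family as PLPP2, had 0.90, 1.21 and 0.90 (limma adjusted p = 0.00634), so that PLPP2 and PLPP3 differed between the clones in opposite directions on every array. CDS1, which makes CDP-diacylglycerol from phosphatidic acid for phosphatidylinositol and cardiolipin, had 0.76, 0.74 and 0.57 (limma adjusted p = 0.00596).

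**Figure D4:**
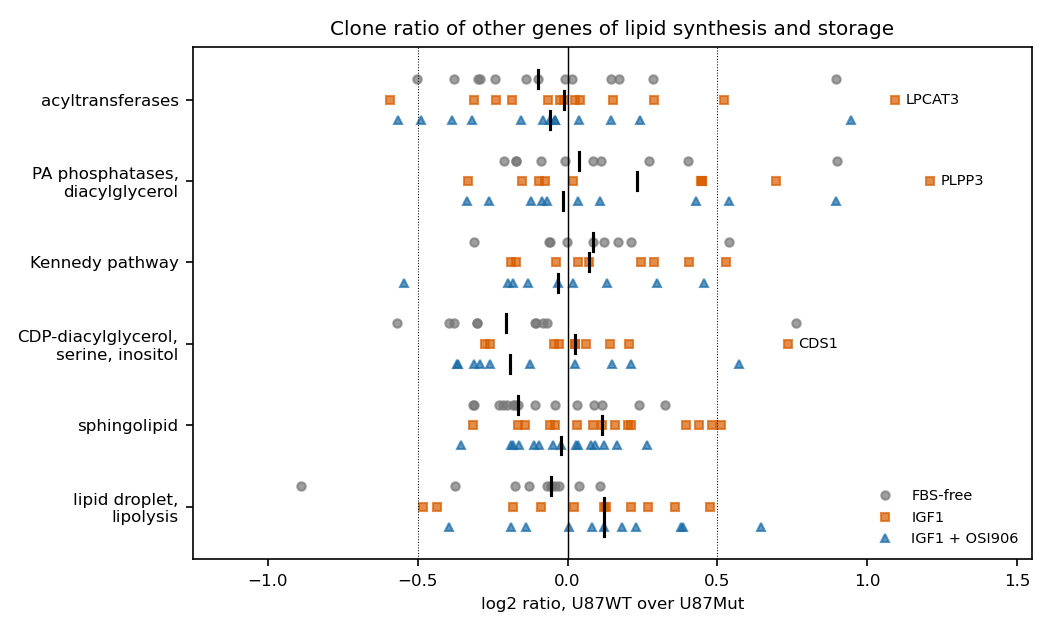
Log2 ratio of U87WT over U87Mut (x axis) of the 68 other genes of lipid synthesis and storage well above background, by group (rows), on the FBS-free (grey circles), IGF1 (orange squares) and IGF1 with OSI906 (blue triangles) arrays, 1 point for each gene and array, with group medians as black bars and the limit of 0.5 as dotted lines. LPCAT3, PLPP3 and CDS1, named beside their IGF1 value, are past 0.5 on all arrays, and the medians of all groups lie within the limit.

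Genes of the wider lists were ranked by how near their 3 ratios lay to those of LPIN1 (Euclidean distance over the 3 arrays). The nearest was DGKQ, a diacylglycerol kinase, with log2 ratios of 0.27, 0.69 and 0.54 at a distance of 0.25. MGLL, the monoacylglycerol lipase, followed with -0.06, 0.48 and 0.39 at 0.32, and MBOAT2, a lysophospholipid acyltransferase, with 0.17, 0.52 and 0.24 at 0.35. With 3 arrays, this ranking describes their values only.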

How the data were processed

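The authors deposited, per the file headers, spot and local background brightness (intensity) from Agilent Feature Extraction 12.0.3.1, with no normalization, and the same software's processed intensities and log10 ratios (used as an alternative after conversion to log2). A table of limma-normalized log2 ratios between the clones was deposited too. From the median intensities, log2 ratios and levels were obtained with limma 3.58.1 under R 4.3.3: normexp (offset 50) fitted without the spots marked as not uniform (384, 572 and 5), 2075 control spots removed, loess within and Aquantile between arrays, and outlier spots left out (95, 117 and 95). Probes were named by RefSeq transcript (GRCh38.p14) for 34892 of 36770 probes with an accession. A gene's brightest probe has the highest mean level over both channels of all arrays. The number of arrays limits the precision. The mean ratio over the arrays was tested by limma's eBayes on an lmFit with an intercept alone, at 5% after Benjamini-Hochberg adjustment. The fit was tested on simulated noise with 2-fold changes added, and it recovered 200 of 200 and called 9 others. Its simulated noise was alike for all probes, and the smaller differences of most members were not simulated. The processing was tested with a 2-fold Cy5 change put on the IGF1 array. For probes above a log2 level of 9 it gave a median change of 0.941 in place of 1. PLPP2 and DGAT2 lie below that level. Named genes are the 10 members, wider-list genes past the limit one way on all arrays, the 3 nearest to LPIN1, and IGF1R; others were named after their values were seen. Members and lists were chosen with earlier results of these data known. The alternatives were other background corrections, signals, normalizations, limits and probe rules, a filter on dim probes, and leaving out each array.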

Additional observations from a re-analysis of the deposited data

How the results depend on the processing

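Each ratio pairs the clones on 1 array, and with 1 array per condition there was no replicate number to add as a block. The mean spot signal was not run, since the files used here hold the median. Over single genes, 660 values stayed on their side of the limit, of which 49, none over 0.36 in size, changed sign, 55 passed it, 34 no longer did, and 1 past the limit turned: LPIN2 on the IGF1 array, 0.51, was -0.0258 in the deposited log2 ratios, and the cause was not tested. The 3 members called by limma became 0 with all spots in the background fit, with the scanner's signals, with median normalization and with the deposited ratios, and ranged from 0 to 4 when an array was left out (0 without IGF1 with OSI906, 1 without FBS-free medium, 4 without IGF1). Over 13 alternatives PLPP2 passed in 8, PCYT1A in 7 and DGAT2 in 6, with mean ratios of -1.63 to -0.83, 0.14 to 0.35 and 0.22 to 0.66. The share of all named genes was not counted under any alternative, so the counts given here describe the members only. On the arrays, the counts past the limit (2, 4 and 1) were 8, 8 and 10 at 0.5 SD of each array (wider lists 18 in place of 3). That lower limit was 0.113, 0.119 and 0.108. It lay inside the quartiles of all named genes (-0.18 and 0.15, -0.14 and 0.20, -0.19 and 0.16), so most of those genes passed it too. On the IGF1 array the count was 1 with all spots and 2 with the deposited ratios (wider lists 1) or the mean of probes, which also gave 1 in FBS-free medium; median normalization gave 2 with OSI906. For the difference from FBS-free medium to IGF1, the 2 members in U87WT became 4 with all spots and 1 with the mean of probes, and the 2 in U87Mut became 4 with the scanner's signals or median normalization and 0 with the mean of probes. For OSI906, the 1 member in U87WT became 3 with all spots, 2 with the scanner's signals, 3 with median normalization and 0 with the mean of probes; the 1 in U87Mut became 2 with an offset of 20, with no background correction or with median normalization, 3 with the scanner's signals and 0 with the mean of probes.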

Other observations

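Some genes of the wider lists outside the naming rule were singled out after their values were seen. Single genes of these lists were not followed through the alternative settings. LIPE, the hormone-sensitive lipase of lipid droplets, was lower in U87WT, with log2 ratios of -0.89, -0.48 and -0.39 on the FBS-free, IGF1 and IGF1 with OSI906 arrays (limma adjusted p = 0.0419). HILPDA of the same group was lower too, with -0.38, -0.44 and -0.19 (limma adjusted p = 0.0409), and 0 of the 11 genes of that group were higher by limma. G0S2, an inhibitor of triacylglycerol lipase, had ratios of -0.17, 0.13 and 0.65; its level with OSI906 was above that with IGF1 alone by 1.29 in U87WT and 0.77 in U87Mut on the log2 scale. GPAT3, GPAT4 and AGPAT5, acyltransferases ahead of the lipins in the pathway, were lower in U87WT by limma, with mean log2 ratios of -0.41, -0.31 and -0.51 (limma adjusted p = 0.031, 0.013 and 0.013). Of all named genes 10.7% were lower by limma. Related genes did not pass: the means of GPAM, GPAT2, AGPAT2, AGPAT3 and AGPAT4 were 0.05, 0.09, -0.18, -0.12 and -0.002. That of AGPAT1 was -0.06.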
